A study of Homo sapiens with 9 samples.

Results

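The genes described here encode the proteasome, the protease that degrades ubiquitin-tagged proteins. They were chosen by symbol alone, as the rows named PSMA to PSMG followed by a number, which gave 48 of the 60591 gene symbols counted. Of these, 45 were among the 15944 genes that passed edgeR's filter on low counts and were tested, and PSMA8, PSMB9 and PSMB11 were not. The 48 genes comprise 8 genes of the alpha ring of the core, 7 of the constitutive beta ring, 4 that replace beta subunits in the immunoproteasome and thymoproteasome, 9 of the base and 8 of the lid of the 19S regulatory particle, 3 chaperones of base assembly, 5 activators and inhibitors of the core and 4 chaperones of core assembly.

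Messenger RNA was measured in undifferentiated Caco-2 cells (uCaco-2), a human colon adenocarcinoma line cultured alone in plates. The 3 groups had 3 libraries each: control cells in fresh medium, cells with 300 μM cobalt (II) chloride (CoCl2) and cells with 5 μM of an oxyquinoline derivative (OD), all for 24 h and all with 0.5% DMSO, so the control is a vehicle control. Both agents are used to activate the hypoxia-inducible factor (HIF) pathway, and the comparisons ask how each of them changed expression. Libraries held 15998136 to 24209427 counts. Levels are given as CPM, the counts scaled by TMM to a common library total that is corrected for composition. The factors were 0.77 to 0.795 in CoCl2 libraries and 1.11 to 1.15 in the other 6, so CoCl2 libraries differed in composition from the rest, and calls against control that are lost when libraries are scaled by their totals alone are given with each part of the particle. Of 10 markers of intestinal epithelial cells, 9 had at least 10 counts in a library, with CDX1 at 0 throughout, and they summed to 9923 to 13275 CPM per library. Most of this sum was KRT8 and KRT18, while KRT20 and LGALS4 reached at most 5.99 and 2.55 CPM in a library. VIL1, another of the 10 markers, had 10633 to 12428 counts in control libraries and 1397 to 2277 with CoCl2. The markers of fibroblasts, leukocytes and endothelial cells summed to at most 27.3, 58.7 and 3.41 CPM, mostly COL1A1, COL3A1, LYZ, CD14 and PECAM1, and PTPRC, the defining leukocyte marker, had at most 3 counts.

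The 26S proteasome consists of a barrel-shaped core, whose outer alpha rings gate the entrance and whose inner beta rings carry the proteolytic sites, capped by regulatory particles. The base of the 19S particle holds a ring of ATPases that unfold substrates, and the lid holds the deubiquitinase that removes the ubiquitin chain. Dedicated chaperones build the core and the base and leave the finished particle. When proteasome capacity falls short, the transcription factor NFE2L1 (NRF1) is released by the protease DDI2 and induces proteasome genes through antioxidant response elements (AREs) in their promoters, while interferon induces the alternative catalytic subunits of the immunoproteasome and the activator genes PSME1 and PSME2.

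The promoters of the genes that moved are shown here because the ARE is the element through which proteasome genes are known to be induced together. RefSeq promoter windows on GRCh38.p14, from 250 bases before to 50 bases after a start, were matched for 42 of the 48 genes, with 51 windows. The ARE was searched as the letters TGACNNNGC on both strands, N being any base. In the following sequences, which run 5′ to 3′ on the strand of the gene, the match is in capitals. PSMB3, of the beta ring, and PSMD12, of the lid, rose with CoCl2, whereas PSMG1, a chaperone of core assembly, fell. Only bases before the start that lie in no exon of GENCODE release 44 are shown, at chr17:38752491-38752740 (plus strand) for PSMB3, chr17:67366606-67366827 (minus strand) for PSMD12 and chr21:39183489-39183701 (minus strand) for PSMG1.
PSMB3: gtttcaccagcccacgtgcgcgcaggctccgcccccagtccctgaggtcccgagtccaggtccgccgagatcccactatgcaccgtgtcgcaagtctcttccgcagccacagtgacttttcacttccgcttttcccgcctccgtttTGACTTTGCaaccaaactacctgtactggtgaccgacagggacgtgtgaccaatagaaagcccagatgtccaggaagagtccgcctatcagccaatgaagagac
PSMD12: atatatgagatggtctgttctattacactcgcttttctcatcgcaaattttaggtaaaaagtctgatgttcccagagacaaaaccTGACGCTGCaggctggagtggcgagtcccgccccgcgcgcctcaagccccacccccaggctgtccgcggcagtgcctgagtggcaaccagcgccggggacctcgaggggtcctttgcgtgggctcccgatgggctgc
PSMG1: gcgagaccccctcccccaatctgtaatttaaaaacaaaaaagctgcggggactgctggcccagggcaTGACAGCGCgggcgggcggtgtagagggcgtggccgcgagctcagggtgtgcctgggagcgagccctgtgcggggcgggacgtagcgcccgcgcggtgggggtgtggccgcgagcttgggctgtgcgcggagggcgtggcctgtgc
The match begins 104 bases before the start in PSMB3, 165 in PSMD12 and 183 in PSMG1. Further matches are shown with 10 bases on each side, from PSME4 and PSMA4, which rose with CoCl2, and from PSME2, which fell, and PSMD3, which stayed below the fold threshold.
PSME4 (chr2:53971009-53971037, minus strand): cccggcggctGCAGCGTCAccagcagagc
PSMA4 (chr15:78540650-78540678, plus strand): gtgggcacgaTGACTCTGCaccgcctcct
PSME2 (chr14:24146767-24146795, minus strand): ccctggactgTGACCCAGCcagcaccgcc
PSMD3 (chr17:39980760-39980788, plus strand): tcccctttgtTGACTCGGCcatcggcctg
In PSME4 the letters stand on the opposite strand, 34 bases before the start. Of the 51 windows of proteasome genes, 15 (29.4%) held the ARE letters, against 4687 of 35116 windows of all genes (13.35%). By gene, 6 of the 23 genes with a window that rose with CoCl2 held them, 2 of 4 that fell and 6 of 12 that were tested and not called. Heat-shock element letters (GAANNTTC or TTCNNGAA) were in 5.88% of the proteasome windows and 13.5% of all, the letters ACGTG or GCGTG of the hypoxia response element in 51% and 48.45%, and CCAAT in 39.2% and 34.6%. A match is only a description of letters in a window.

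With CoCl2, 26 of the 45 tested proteasome genes rose and 4 fell. A gene is called here, and said to rise or fall, at an adjusted p under 0.05 (quasi-likelihood test of edgeR, Benjamini-Hochberg over all tested genes) and a log2 fold change beyond 1 in size, the study's thresholds. Of all tested genes 19.9% rose and 23.4% fell with CoCl2 by the same rule. The genes that rose were the 7 of the alpha ring, 6 of 7 of the constitutive beta ring, 6 of 9 of the base, 6 of 8 of the lid and the activator gene PSME4. PSMB8, PSME2, PSMG1 and PSMG4 fell. By the adjusted p alone, without the fold threshold, 35 were higher and 9 lower, against 40.4% and 42.8% of all genes. All CoCl2 libraries lay above all control libraries for 35 genes and below them for 9, as they did for 40.5% and 42.9% of all tested genes. The median log2 fold change was 1.25 against -0.049 over all tested genes. When libraries were scaled by their totals alone, the calls were 11 higher and 4 lower, against 11.5% and 36.6% of all genes. The member median was then 0.75 and that of all genes -0.55. The members stood 1.30 above all genes with either scaling, which had to hold, since a scaling shifts all genes alike. That difference was 1.03 with DESeq2 on 9 libraries, 0.96 with DESeq2 on 6 libraries and 1.06 without a count filter. In bulk RNA, fewer cells with a transcript and less of it per cell cannot be told apart.

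**Figure D1:**
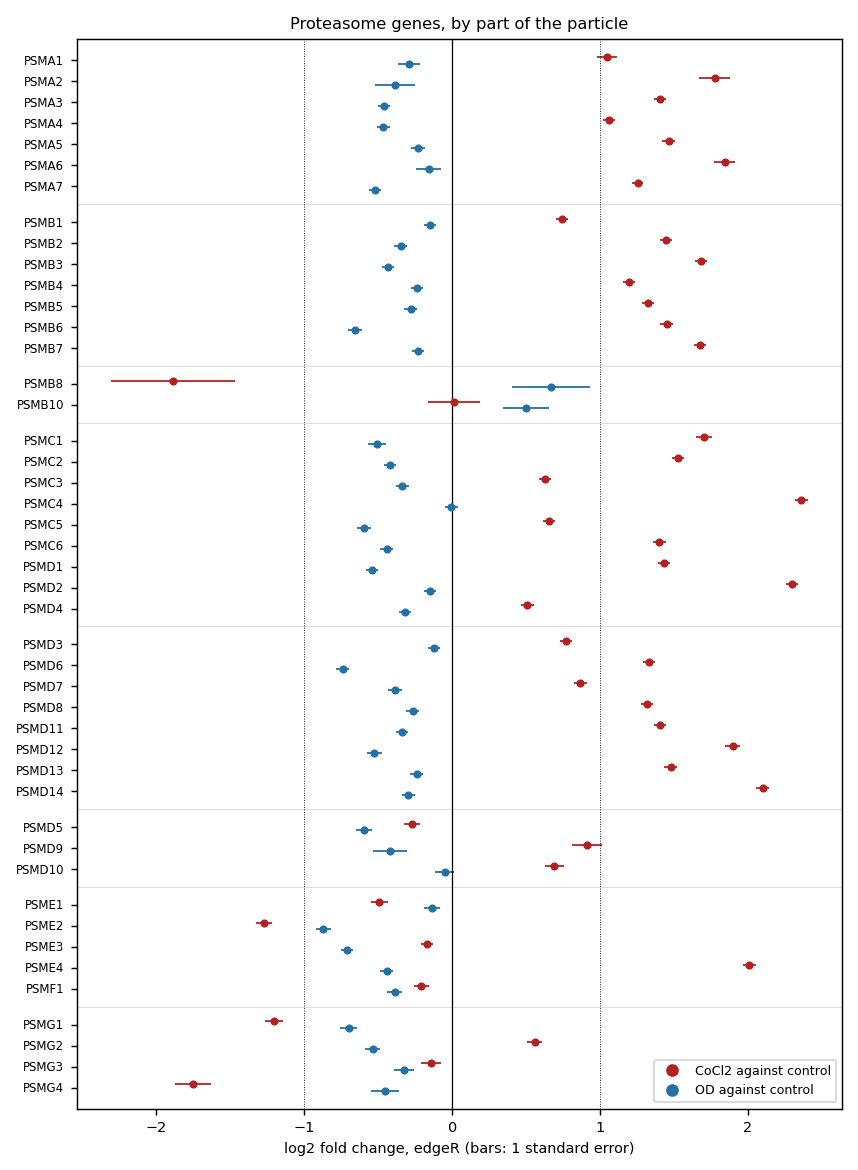
Fitted log2 fold changes of the 45 tested proteasome genes with CoCl2 (red) and OD (blue) against control cells, with bars of 1 standard error and dotted lines at the fold threshold. Core, base and lid genes lie at 0.51 to 2.36 with CoCl2, while immunoproteasome, activator and chaperone genes lie on both sides of 0, and with OD no gene passes a dotted line.

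The alpha ring forms the gate of the core, and each of its 7 tested genes rose with CoCl2, by log2 fold changes of 1.05 to 1.84 (median 1.40). PSMA7, at 588, 572 and 556 CPM in the control libraries, was at 1399, 1342 and 1353 CPM with CoCl2. PSMA3 was at 185, 198 and 195 CPM in control cells and at 512, 534 and 487 CPM with CoCl2. In both genes the lowest CoCl2 library lay above the highest control library, with log2 fold changes of 1.25 (SE 0.0387, edgeR adjusted p = 8.95e-39) and 1.40 (SE 0.0418, edgeR adjusted p = 1.12e-39). PSMA6 was at 13.3, 13.1 and 13.2 CPM in control cells and at 48.7, 49.1 and 44.9 CPM with CoCl2, the largest log2 fold change of the ring at 1.84 (SE 0.0713, edgeR adjusted p = 1.70e-33). PSMA5 had a log2 fold change of 1.47. PSMA1 and PSMA4 were nearest to the threshold, at 1.05 and 1.06, and both were under 1 without the count filter or with upper-quartile factors. PSMA1 was also under 1 without control replicate 1 (0.99) or CoCl2 replicate 2 (0.98). Scaled by library totals alone, 2 of the 7 genes, PSMA2 and PSMA6, were still called, and PSMA1, PSMA3, PSMA4, PSMA5 and PSMA7 were at 0.54, 0.90, 0.56, 0.96 and 0.75. The levels of PSMA1, PSMA2 and PSMA6, at 24.3 to 29.4, 4.71 to 5.70 and 13.1 to 13.3 CPM in control cells, count only part of their reads if reads that fit several genes were left out, since 88.6%, 97.8% and 70.4% of their coding bases are shared with a readthrough gene on the same strand. PSMA8, the counterpart of PSMA7 in male germ cells, had no count in any library.

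The constitutive beta ring holds the 3 catalytic subunits PSMB5, PSMB6 and PSMB7, which cut after hydrophobic, acidic and basic residues, and all of them rose with CoCl2. PSMB5 was at 218, 196 and 202 CPM in control cells and 530.0, 501 and 514 CPM with CoCl2. PSMB6 was at 95.8, 92.1 and 92.8 CPM and 259, 245 and 262 CPM. PSMB7 was at 209, 191 and 204 CPM and 641, 646 and 648 CPM. No library overlapped between the groups in these genes, and the log2 fold changes were 1.33, 1.45 and 1.68 with standard errors of 0.0418, 0.0442 and 0.0410 (edgeR, largest adjusted p = 2.60e-38). Among the structural subunits PSMB2, PSMB3 and PSMB4 rose by 1.44, 1.68 and 1.20. When scaled by library totals alone, PSMB3 and PSMB7 were still called and PSMB2, PSMB4, PSMB5 and PSMB6 were at 0.94, 0.69, 0.82 and 0.94. PSMB1 did not reach the fold threshold, with 219.6, 214 and 223 CPM in control cells, 373, 369 and 356 CPM with CoCl2 and a log2 fold change of 0.74 (SE 0.0399, edgeR adjusted p = 4.54e-26).

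In the base of the 19S particle 6 of 9 genes rose with CoCl2, among them the 2 largest fold changes of all proteasome genes. PSMC4, an ATPase of the ring (RPT3), was at 213, 206 and 224 CPM in control cells and at 1089, 1061 and 1149 CPM with CoCl2, 5.14-fold higher. PSMD2, the scaffold subunit RPN1 that binds ubiquitin and shuttle factors, was at 408, 393 and 394 CPM and at 2016, 1898 and 1957 CPM, 4.92-fold higher. The CoCl2 libraries of both genes lay far above every control library, with log2 fold changes of 2.36 (SE 0.0428, edgeR adjusted p = 1.87e-51) and 2.30 (SE 0.0407, edgeR adjusted p = 5.32e-52). PSMC1, PSMC2, PSMC6 and PSMD1 rose by 1.70, 1.53, 1.40 and 1.43. With library totals as the only scaling 4 of the 6 remained, and PSMC6 and PSMD1 were at 0.90 and 0.93. The ATPase genes PSMC3 and PSMC5 stayed below the fold threshold. PSMC3 was at 243, 231 and 243 CPM in control cells and 369.8, 347 and 389 CPM with CoCl2, a log2 fold change of 0.63 (SE 0.0414, edgeR adjusted p = 1.16e-21). PSMC5 was at 155, 142 and 146 CPM and 235, 222 and 241 CPM, at 0.66 (SE 0.0434, edgeR adjusted p = 1.17e-21). The number of PSMC4 counts was 87.4% to 92.3% of that of PSMC3 in control libraries and 294% to 305% with CoCl2, a ratio within each library that no scaling touches. PSMD4, the ubiquitin receptor RPN10, had the smallest change of the core, base and lid, from 204, 202 and 196 CPM to 288, 268 and 299 CPM with a log2 fold change of 0.51 (SE 0.0419, edgeR adjusted p = 1.98e-17), and when scaled by library totals alone it was 0.0036. Of the exon bases of PSMC1, 76.2% lie opposite NRDE2, and how the counting used strand is not given in the sources used here.

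In the lid, 6 of 8 genes rose. PSMD14 encodes RPN11, the metalloprotease that cuts the ubiquitin chain from the substrate, and was at 158, 161 and 149.9 CPM in control cells and at 685, 674 and 651 CPM with CoCl2. PSMD12 (RPN5) was at 106, 118 and 117 CPM and at 424, 456 and 392 CPM. These were the largest fold changes of the lid, at 2.10 (SE 0.0415, edgeR adjusted p = 2.40e-49) and 1.90 (SE 0.0492, edgeR adjusted p = 2.10e-35), and no libraries overlapped. PSMD6, PSMD8, PSMD11 and PSMD13 rose by 1.32 to 1.48. These last 4 were at 0.83, 0.81, 0.90 and 0.97 when scaled by library totals alone, which left PSMD12 and PSMD14 as the lid genes called. PSMD3 and PSMD7 stayed below the fold threshold. PSMD3 was at 245, 233 and 242 CPM in control cells and 398, 393 and 435 CPM with CoCl2, at 0.77 (SE 0.0414, edgeR adjusted p = 4.68e-26). PSMD7, which pairs with PSMD14 in the lid, was at 177, 171 and 179 CPM and 335, 310.5 and 316 CPM, at 0.87 (SE 0.0436, edgeR adjusted p = 1.48e-27). PSMD14 counts were 83.5% to 94.3% of those of PSMD7 in control libraries and 204% to 217% with CoCl2.

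**Figure D2:**
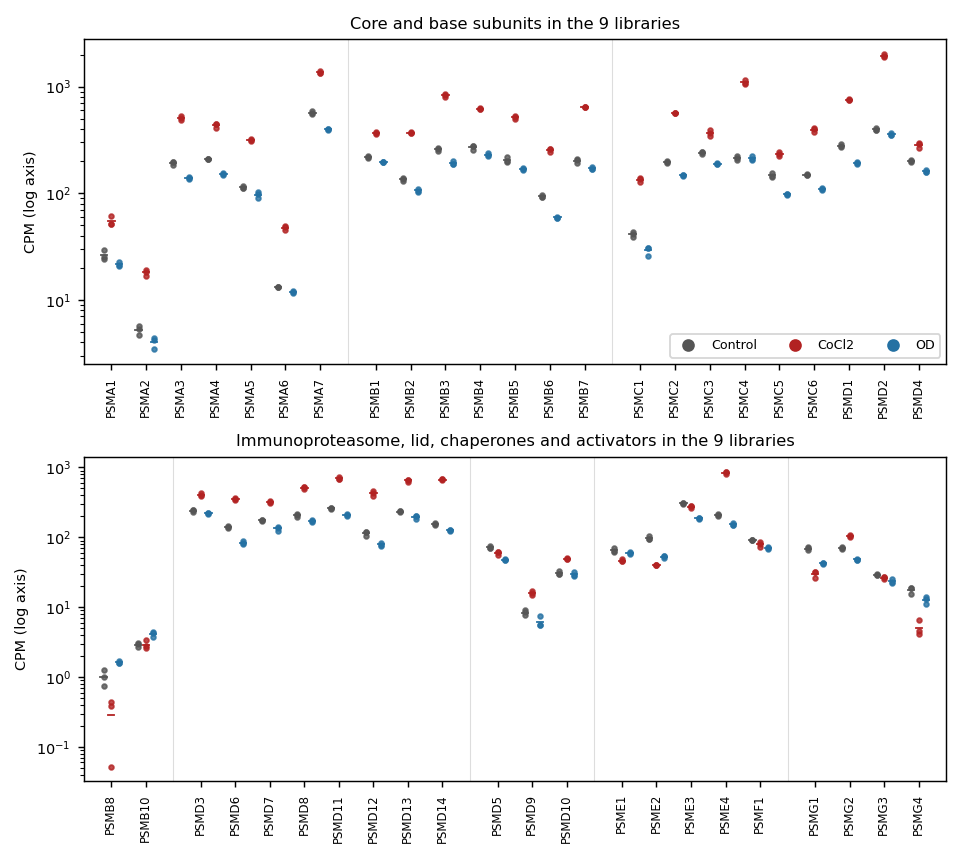
Level of each tested proteasome gene in CPM (log axis) in the 9 libraries, with points for libraries and short lines for group means in control (grey), CoCl2 (red) and OD (blue) cells. In the core and base panel the CoCl2 points lie above the control points for every gene. In the other panel the CoCl2 points lie below the control points for 9 genes, among them PSMB8, PSME2, PSMG1 and PSMG4.

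None of the 7 assembly chaperones with a PSM symbol rose with CoCl2, and 2 of those for the core fell. Of all tested genes 19.9% rose and 23.4% fell. POMP, a core chaperone without such a symbol, rose and is given below. Counts over so few genes do not set the chaperones apart from those shares. PSMG1 and PSMG2 form a heterodimer that starts the alpha ring. PSMG1 was at 65.7, 71.6 and 69.9 CPM in control cells and fell to 26.2, 32.1 and 31.8 CPM with CoCl2, 2.30-fold lower with a log2 fold change of -1.20 (SE 0.0620, edgeR adjusted p = 5.27e-27). Its partner PSMG2 was at 70.9, 71.7 and 68.4 CPM and at 103, 107 and 101 CPM, higher by the adjusted p alone with a log2 fold change of 0.56 (SE 0.0491, edgeR adjusted p = 3.25e-16), which was 0.052 when scaled by library totals alone. The libraries of the groups did not overlap in either gene, in opposite directions. PSMG3 and PSMG4 form the other heterodimer of core assembly. PSMG4 was at 18.7, 18.7 and 15.2 CPM in control cells and fell to 4.54, 4.18 and 6.55 CPM, at -1.75 (SE 0.121, edgeR adjusted p = 9.37e-18). PSMG3 was at 29.8, 28.8 and 29.3 CPM and 26.6, 25.6 and 27.1 CPM, at -0.15 (SE 0.0681, edgeR adjusted p = 0.0446). Relative to PSMA7 of the alpha ring, PSMG1 had 11.2% to 12.6% of the counts in control libraries and 1.87% to 2.39% with CoCl2. None of the 3 chaperones of base assembly was called. PSMD9, which shares 58.7% of its coding bases with a readthrough gene, and PSMD10 (gankyrin) had log2 fold changes of 0.91 and 0.69, and PSMD5 was at 71.0, 70.7 and 74.5 CPM in control cells and 55.7, 62.1 and 61.7 CPM with CoCl2, at -0.27 (SE 0.0534, edgeR adjusted p = 7.23e-06).

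The activators that cap the core in place of the 19S particle split as well. PSME4 encodes PA200, a large single-chain activator found mainly in the nucleus, and was at 202, 214 and 210.1 CPM in control cells and 857, 870.0 and 796 CPM with CoCl2, 4.03-fold higher (log2 fold change 2.01, SE 0.0421, edgeR adjusted p = 5.69e-48). PSME1 and PSME2 form the interferon-inducible activator that is linked to antigen processing. PSME2 was at 103, 93.9 and 93.5 CPM and fell to 40.3, 39.6 and 40.5 CPM, at -1.27 (SE 0.0549, edgeR adjusted p = 6.18e-31). PSME1 was at 69.6, 64.6 and 62.1 CPM and 48.2, 46.3 and 45.1 CPM, at -0.49 (SE 0.0558, edgeR adjusted p = 4.14e-12). Both genes of this pair were thus lower with CoCl2 in every library, PSME1 short of the fold threshold. PSME3, the nuclear relative of that pair, was at 308, 304 and 314 CPM in control cells and 262, 278 and 282 CPM with CoCl2, at -0.17 (SE 0.0403, edgeR adjusted p = 1.16e-04). PSME4 counts were 65.5% to 70.5% of PSME3 counts in control libraries and 282% to 327% with CoCl2, whereas PSME2 counts went from 29.8% to 33.6% of them to 14.3% to 15.4%. PSMF1, which encodes the inhibitor PI31, had a log2 fold change of -0.21 (SE 0.0508, edgeR adjusted p = 1.63e-04).

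The immunoproteasome subunits were near the limit of detection. PSMB8 had 14, 26 and 18 counts in the control libraries and 7, 5 and 1 with CoCl2, and fell by 1.89 on the log2 scale (SE 0.419, edgeR adjusted p = 4.77e-05). PSMB10 was at 2.69, 2.99 and 3.09 CPM in control cells and 2.61, 2.79 and 3.36 CPM with CoCl2, libraries that overlapped, at 0.013 (SE 0.173, edgeR adjusted p = 0.945). The sign of this value turned negative with other scalings and filters. PSMB9, which lies beside PSMB8 on chromosome 6, had 4, 8 and 2 counts in control cells, 0, 1 and 2 with CoCl2 and 7, 5 and 5 with OD and was not tested. PSMB11, the thymus-specific subunit, had a total of 1 count over the 9 libraries, in CoCl2 replicate 3. A count of 0 allows up to 3 counts in a library.

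Summed by part of the particle, and with no scaling but the library total, the 48 genes took 0.776% ± 0.0081 of all counts in control cells (SD, n = 3) and 1.39% ± 0.0062 with CoCl2, 1.79 times as much. The base took 0.208% ± 0.0033 in control cells and 0.454% ± 0.0078 with CoCl2. The lid took 0.17% ± 0.0013 and 0.316% ± 0.0014, and the constitutive beta ring 0.154% ± 0.0050 and 0.282% ± 0.0032. The alpha ring took 0.126% ± 0.0014 in control cells and 0.215% ± 0.0040 with CoCl2. Each of these parts thus had a larger share of the library with CoCl2 even without the composition factor. The chaperones of core assembly had a smaller one, 0.0207% ± 0.00049 in control cells and 0.0129% ± 0.00055 with CoCl2. So did the chaperones of base assembly, at 0.0124% ± 0.00023 and 0.0098% ± 0.00052. The immunoproteasome and thymoproteasome subunits, with few counts, went from 0.00046% to 0.00026%. The activators and PI31 had a larger share, 0.0858% ± 0.00023 in control cells and 0.1003% ± 0.0030 with CoCl2.

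**Figure D3:**
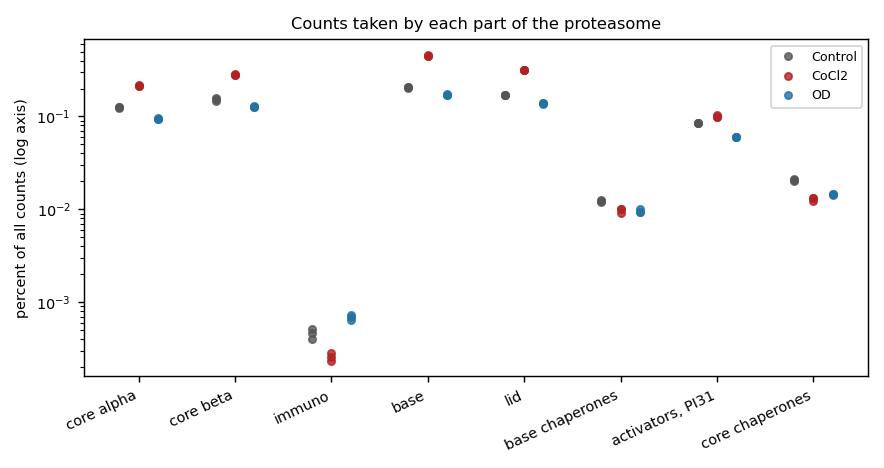
Percent of all counts of a library taken by each part of the proteasome (log axis), with 1 point per library for control (grey), CoCl2 (red) and OD (blue) cells. With CoCl2 the base goes from 0.208% to 0.454% of the counts and the core chaperones from 0.0207% to 0.0129%, and with OD the parts lie below control except the immunoproteasome subunits.

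With OD none of the 45 tested proteasome genes was called, where 9.09% of all tested genes rose and 4.16% fell. DESeq2 also called 0, and 42 of the 45 had an unadjusted p under 0.05. The changes were small and mostly downward. By the adjusted p alone 40 genes were lower and 2 higher with OD, against 33.3% and 32.3% of all tested genes. The OD libraries lay below all control libraries for 41 genes and above them for 2, against 34.3% and 33.7%, and the median log2 fold change was -0.39 against -0.010 over all genes. The 2 comparisons against control cells use the same 3 control libraries, so their values stand side by side and are not independent. In the core, base and lid 29 of 31 genes were lower by the adjusted p, with log2 fold changes down to -0.74.

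PSMD6, a lid subunit (RPN7), had the lowest of these, with 145, 139.6 and 138 CPM in control cells and 87.3, 81.0 and 84.1 CPM with OD, at -0.74 (SE 0.0444, edgeR adjusted p = 4.71e-23). PSMB6, the catalytic subunit that cuts after acidic residues, was at 95.8, 92.1 and 92.8 CPM and 60.4, 59.1 and 58.2 CPM, at -0.66 (SE 0.0474, edgeR adjusted p = 2.32e-19). PSMA7 was at 399.9, 400.1 and 396 CPM with OD, at -0.52 (SE 0.0389, edgeR adjusted p = 1.02e-18). All OD libraries of these genes lay below all control libraries. The catalytic subunits PSMB5 and PSMB7 were at -0.28 and -0.23. The subunits with the largest rise with CoCl2 stayed close to control with OD, PSMC4 at 222, 212 and 206 CPM with a log2 fold change of -0.0060 (SE 0.0426, edgeR adjusted p = 0.910) and PSMD2 at 371, 354 and 350.4 CPM with -0.15 (SE 0.0399, edgeR adjusted p = 7.81e-04). PSMC4 and PSMD10 had overlapping libraries, and with PSMA6 (-0.16) they were the 3 genes not past the adjusted p.

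Among activators and chaperones the lowest values with OD were those of PSME2, PSME3 and PSMG1. PSME2 was at 53.8, 50.9 and 54.4 CPM with OD, at -0.87 (SE 0.0514, edgeR adjusted p = 2.27e-23), the lowest of all proteasome genes. PSME3 was at 192, 184 and 189 CPM, at -0.71 (SE 0.0405, edgeR adjusted p = 3.77e-24), and PSMG1 at 43.4, 42.4 and 41.7 CPM, at -0.70 (SE 0.0570, edgeR adjusted p = 4.02e-17). PSME4 was at 152, 159.6 and 149 CPM, at -0.44 (SE 0.0429, edgeR adjusted p = 3.97e-14). The immunoproteasome genes were the 2 that were higher. PSMB8 had 37, 36 and 30 counts with OD against 14, 26 and 18 in control cells, at 0.67 (SE 0.264, edgeR adjusted p = 0.0224). PSMB10 was at 4.36, 4.26 and 3.73 CPM against 2.69, 2.99 and 3.09 CPM, at 0.50 (SE 0.153, edgeR adjusted p = 0.00341), with 58.3% of its coding bases shared with a readthrough gene. As a share of all counts the 48 genes went from 0.776% ± 0.0081 in control cells to 0.618% ± 0.0065 with OD (SD, n = 3).

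**Figure D4:**
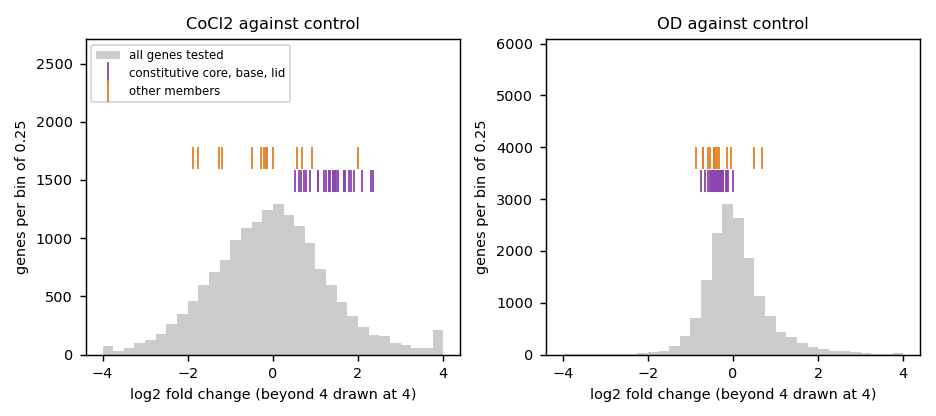
Histogram of the log2 fold changes of all 15944 tested genes (grey) with CoCl2 and with OD, with ticks for the 31 genes of the constitutive core, base and lid (purple) and the other 14 tested proteasome genes (orange). The purple ticks lie at 0.51 to 2.36 with CoCl2 and at -0.74 to -0.0060 with OD.

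In the direct comparison, CoCl2 exceeded OD at the call thresholds for 30 of the 45 genes and fell short of it for 2, against 17.5% and 23.8% of all tested genes, and the median difference was 1.58 on the log2 scale against -0.054. Scaled by library totals alone, 23 were higher and 4 lower, against 8.47% and 37.8% of all genes. By the adjusted p alone 39 were higher and 6 lower with CoCl2, and for the same numbers all CoCl2 libraries lay above or below all OD libraries, where 40.2% and 43.2% of all genes passed that test and 40.3% and 43.5% did not overlap. All 31 genes of the core, base and lid were higher with CoCl2 by the adjusted p, 27 of them past the fold threshold. The largest differences were those of PSME4 (2.45, SE 0.0430, edgeR adjusted p = 4.54e-52) and PSMD2 (2.45, SE 0.0409, edgeR adjusted p = 3.24e-53), followed by PSMD12, PSMD14, PSMC4 and PSMC1 at 2.42, 2.40, 2.37 and 2.21. PSMB8 and PSMG4 were the genes called lower with CoCl2, at -2.55 (SE 0.374, edgeR adjusted p = 8.72e-09) and -1.30 (SE 0.126, edgeR adjusted p = 7.60e-13). PSME2 and PSMG1, lower than control with either agent, were lower still with CoCl2, at -0.40 (SE 0.0572, edgeR adjusted p = 5.14e-09) and -0.50 (SE 0.0644, edgeR adjusted p = 1.95e-10). PSME3 differed the other way, at 0.54 (SE 0.0409, edgeR adjusted p = 4.34e-19), a difference of -0.0023 when scaled by library totals alone.

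Genes of the pathway that do not carry a PSM symbol were described from lists chosen with earlier results of these data known. The counts of this and the following lists describe the listed genes and do not test them against all genes. Of 13 partners of the particle, 10 rose with CoCl2 and 1 fell, against 19.9% and 23.4% of all tested genes, and none was called with OD. Scaled by library totals alone 5 rose and 2 fell, against 11.5% and 36.6% of all genes. POMP (0.92), USP14 (0.74) and SEM1 (0.52) were then among those no longer called, and PAAF1 was called lower (-1.26). ADRM1, the ubiquitin receptor RPN13 of the base, was at 217, 206 and 224 CPM in control cells and 1015, 996 and 1019.8 CPM with CoCl2, at 2.23 (SE 0.0419, edgeR adjusted p = 1.57e-50). UCHL5, the deubiquitinase that docks on ADRM1, was at 43.8, 52.6 and 51.8 CPM and fell to 21.6, 23.1 and 24.1 CPM, at -1.11 (SE 0.0688, edgeR adjusted p = 6.56e-23). The 2 proteins bind each other in the particle, and their transcripts moved in opposite directions. POMP, the chaperone that matures the core, rose by 1.43, TXNL1, a thioredoxin-like protein bound to the 19S particle, by 2.03, USP14, the other deubiquitinase of the base, by 1.25, and AKIRIN2, which brings proteasomes into the nucleus, by 1.88. PAAF1, a chaperone of the base, was at -0.75 (SE 0.0605, edgeR adjusted p = 6.78e-18), short of the fold threshold like the other base chaperones. ZFAND2A, a stress-induced protein that binds the 19S particle, had the largest change of the list, from 15.4, 15.1 and 14.2 CPM to 1246, 1194 and 1079.7 CPM, 78.7-fold, and its relative ZFAND5, a proteasome activator, went from 26.6, 26.9 and 27.7 CPM to 206, 201 and 188 CPM, 7.33-fold. With OD they were at 0.65 and 0.41.

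Of 10 genes for transcription factors linked to proteasome genes and for the enzymes that process them, 6 rose and 2 fell with CoCl2, where 19.9% and 23.4% of all tested genes did, and 2 rose with OD, where 9.09% did. The number that fell is near the share of all genes. With library totals as the only scaling 4 rose and 2 fell with CoCl2, against 11.5% and 36.6% of all genes. In that scaling 2 rose with OD, against 9.73% of all genes. NFE2L1 was at 424, 417 and 409 CPM in control cells, 971, 932 and 1001 CPM with CoCl2 and 926, 895 and 902 CPM with OD. Both groups lay above control, at 1.22 (SE 0.0394, edgeR adjusted p = 1.34e-37) with CoCl2 and 1.12 (SE 0.0393, edgeR adjusted p = 8.37e-35) with OD, and between the agents the sign of the difference (0.093) changed with the scaling. Scaled by library totals alone, NFE2L1 was at 0.71 with CoCl2, under the fold threshold, and at 1.16 with OD. All 31 genes of the core, base and lid were higher than control with CoCl2 by the adjusted p, where 40.4% of all tested genes were. With OD 29 of the 31 were lower, where 33.3% of all tested genes were. Whether NFE2L1 had a part in either was not tested, and these data hold mRNA, not its protein or processing. DDI2, the protease that releases NFE2L1, was at 79.6, 82.7 and 80.8 CPM in control cells, fell to 40.2, 35.6 and 40.0 CPM with CoCl2 (log2 fold change -1.06, SE 0.0550, edgeR adjusted p = 6.65e-27) and was at 81.3, 81.4 and 80.5 CPM with OD. Of the coding bases of DDI2, 60.0% are shared with RSC1A1 on the same strand, which had 0 counts. The DDI2 levels count only part of its reads if reads that fit several genes were left out. NFE2L2 (NRF2), which also acts on AREs, rose by 1.57 with CoCl2 and was at 0.37 with OD, and NFE2L3 fell by 1.38 with CoCl2. The small MAF genes, whose proteins pair with these factors on the ARE, rose with CoCl2, MAFF at 4.08, MAFG at 3.40 and MAFK at 1.74, and MAFF also with OD, at 1.70 (SE 0.0781, edgeR adjusted p = 1.99e-23). For NFE2L2 and NFE2L3, 24.8% and 28.1% of the exon bases lie opposite other genes. Of the exon bases of NFE2L2, 13.6% are also shared with another gene on the same strand.

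Of 15 genes of ubiquitin and of delivery to the proteasome, 7 rose with CoCl2 and none fell, against 19.9% and 23.4% of all tested genes, and none was called with OD. Scaled by library totals alone 5 rose and 0 fell, against 11.5% and 36.6% of all genes, and UBB (0.70) was among those no longer called. UBB, a polyubiquitin gene, rose by 1.20 on the log2 scale. VCP, the segregase that pulls ubiquitylated proteins out of complexes, was at 599.9, 565 and 577 CPM in control cells and 3161, 2922 and 3010.1 CPM with CoCl2, at 2.38 (SE 0.0412, edgeR adjusted p = 1.43e-52), with its cofactors UFD1 and NPLOC4 at 2.61 and 1.68. SQSTM1, the receptor that takes ubiquitylated cargo to autophagy, rose by 3.15, and UBQLN1, a shuttle to the proteasome, by 2.22. Of 7 interferon-inducible genes of peptide loading, 0 rose and 2 fell with CoCl2, where 4 had an unadjusted p under 0.05, and 1 rose with OD, counts near the 23.4% of all tested genes that fell with CoCl2 and the 9.09% that rose with OD. TAP1, a peptide transporter subunit whose gene lies beside PSMB9, was at 2.10, 2.84 and 2.36 CPM in control cells, 1.80, 2.32 and 2.52 CPM with CoCl2 and 7.86, 7.50 and 7.77 CPM with OD, where it rose by 1.65 (SE 0.141, edgeR adjusted p = 2.81e-16). TAP2, IRF1 and TAPBP were at 0.92, 0.98 and 0.87 with OD, below the fold threshold, beside the values of 0.67 and 0.50 of PSMB8 and PSMB10. TAP2 fell with CoCl2, at -1.06 (SE 0.143, edgeR adjusted p = 1.02e-09). Without CoCl2 replicate 2 or without CoCl2 replicate 3 it was at -0.98, short of the fold threshold. Of the coding bases of TAP2, 91.2% are shared with another gene on the same strand.

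**Figure D5:**
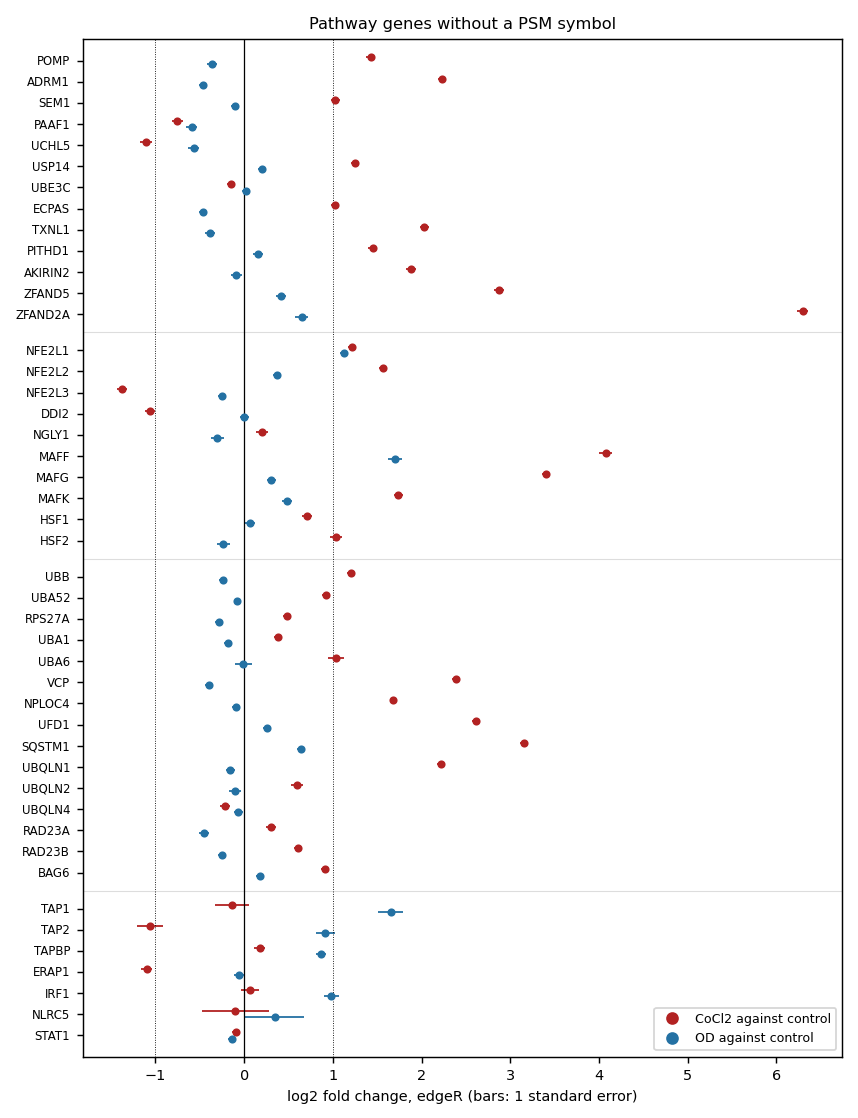
Fitted log2 fold changes of 45 pathway genes without a PSM symbol with CoCl2 (red) and OD (blue) against control cells, grouped from top to bottom as particle partners, transcription factors, ubiquitin and delivery genes and peptide loading genes, with bars of 1 standard error and dotted lines at the fold threshold. ZFAND2A stands apart at 6.30 with CoCl2, UCHL5, NFE2L3, DDI2, TAP2 and ERAP1 lie below -1, and TAP1 is at 1.65 with OD.

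Levels of different genes were compared per kilobase of merged exons. PSMA7 was the highest of the 48 genes in each group, at 326 ± 9.16 CPM per kilobase in control cells (SD, n = 3), 779 ± 17.5 with CoCl2 and 227 ± 1.46 with OD, followed by PSMB3 at 222 ± 7.90, 711 ± 20.5 and 164 ± 6.95. In control cells PSMB5 (133 ± 7.49) and PSMB4 (127 ± 5.94) came next and did not differ beyond their spread. With CoCl2 the base subunits PSMC4 (431 ± 17.8) and PSMD2 (395 ± 11.9) held these places. The catalytic subunit PSMB8 of the immunoproteasome was at 0.29 in control cells. PSMA7 and PSMB3 kept the first places with the coding length or the MANE Select transcript in place of merged exons, while of the first 10 genes in control cells 6 and 8 remained. The places below the first 2 depended on the length used. With coding length and the MANE Select transcript PSMB4 was at place 3 in control cells and PSMB5 at places 8 and 7, and with CoCl2 PSMC4 was at places 3 and 6 and PSMD2 at places 6 and 4.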

How the data were processed

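The authors checked the single-end reads with FastQC 0.11.9, trimmed them with cutadapt 2.10, mapped them on GRCh38.p13 with STAR 2.7.5b and counted them on GENCODE release 34. The deposited values are raw counts per gene symbol, without normalization. The counting tool, how it used strand and what it did with reads matching more than 1 gene are not given in the sources used here.

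Members were the symbols PSMA to PSMG followed by a number. The members, the other lists and the promoter motifs were chosen with earlier results of these data known. In R 4.3.3, edgeR 4.0.16 computed TMM factors, applied filterByExpr and fitted a robust quasi-likelihood model over all 9 libraries with 1 mean per group, and p-values of its test were adjusted by Benjamini-Hochberg over 15944 genes. SE is the size of the log2 fold change divided by the root of F. The libraries are 3 biological replicates per group by the study's methods, and p-values measure the spread between them. For a single gene, an exact permutation test of 3 libraries against 3 cannot go below a two-sided p of 0.1. All members and listed pathway genes could be named, of which the text gives the members and selected pathway genes. A listed gene is not reported here. Gene positions and overlaps came from GENCODE release 44 by symbol, promoters from RefSeq. Across 35 rows of proteasome pseudogenes there were 1248 counts, against 1593095 for the members. The steps were tested on simulated data. Alternatives were other scalings, DESeq2 1.42.0, other count filters, fits on 6 libraries, glmTreat, the replicate number as a block and each library left out. The length of the MANE Select transcript was added after seeing the data. Counting limits cover counting error only.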

Additional observations from a re-analysis of the deposited data

How the results depend on the processing

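Among the 45 proteasome genes, 30 were called with CoCl2, 0 with OD and 32 between the agents. Over the alternatives in scaling, test, count filter and left-out libraries the count with CoCl2 was 28 to 30, except 15 with library size as the only scaling, and that between the agents was 27 to 33. The count with OD stayed 0. By the adjusted p alone the counts were 44 with CoCl2, 42 with OD and 45 between the agents. That rule drops the fold threshold by its construction.

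The median with CoCl2 was 1.25, and 1.31 with RLE factors, 1.15 with upper-quartile factors, 0.75 with library size alone, 1.21 with DESeq2 on 6 libraries and 1.19 without a count filter, and from 1.23 to 1.27 with a library left out. With OD the median of -0.39 was -0.35 with upper-quartile factors, -0.34 with library size alone or DESeq2 on 9 libraries, -0.35 with DESeq2 on 6 libraries or without a count filter, and from -0.39 to -0.33 with a library left out. Between the agents 1.58 became 1.63, 1.45 and 1.04 with RLE factors, upper-quartile factors and library size alone, 1.53 and 1.51 with DESeq2 on 9 and 6 libraries, 1.52 without a filter and 1.54 with at least 10 counts in every library, and 1.56 to 1.61 with a library left out. The medians of all genes moved by the scalings too, and the cause of the other shifts was not tested.

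Signs turned in genes near 0. PSMB10 with CoCl2 was -0.087 with upper-quartile factors, -0.49 with library size alone, -0.0074 with DESeq2 and -0.00075 with edgeR on 6 libraries, -0.051 without a filter, -0.016 with at least 10 counts, and from -0.117 to 0.099 with a library left out, below 0 without CoCl2 replicate 3 or control replicate 1 (-0.042). PSMC4 with OD was 0.00069 with RLE factors, 0.025 with upper-quartile factors, 0.034 with library size alone, 0.0025 and 0.0050 with DESeq2 on 9 and 6 libraries, 0.011 with edgeR on 6 libraries, 0.019 with at least 10 counts, and from -0.037 to 0.025 with a library left out, where PSMD10 went from -0.107 to 0.0030. With library size alone PSMD5, PSME3, PSMF1 and PSMG3 were at -0.217, -0.0023, -0.37 and -0.37 between the agents, NFE2L1 at -0.45 (and -0.039 with upper-quartile factors), and TAPBP and IRF1 at -0.33 and -0.44 with CoCl2 (IRF1 -0.034 with upper-quartile factors). DDI2 with OD was from -0.0031 to 0.014 with a library left out.

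The values do not settle whether the replicate numbers pair the libraries. Deviations of same-numbered libraries correlated at -0.09 to 0.225, and 5 of 9 libraries correlated best with their own number. With the replicate number as a block the counts were 30, 0 and 32 and the medians 1.25, -0.39 and 1.58, and it changed no call of a member. Low counts kept PSMA8, PSMB9 and PSMB11 from being tested.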
